A study of Mus musculus with 52 samples.

Results

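The promoters described here are those of 10 genes that encode subunits of polycomb repressive complex 2 (PRC2): Ezh1, Ezh2, Eed, Suz12, Jarid2, Aebp2, Mtf2, Phf1, Phf19 and Rbbp4. They were found by matching the RefSeq identifiers of the promoter tables to gene symbols, a rule that reads no measured value, and each of the 10 genes had 1 promoter among the 20633 in the tables. The assay was calibrated ATAC-seq (cATAC-seq) of mouse embryonic stem cells (mESCs), in which the Tn5 transposase cuts accessible DNA and Drosophila SG4 cells mixed into each sample set the scale. The study asked whether KDM2A and KDM2B, histone H3 lysine 36 demethylases that bind CpG islands, affect accessibility at promoters.

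There were 4 mESC lines, each homozygous for loxP sites and carrying a CRE recombinase that 4-hydroxytamoxifen (800 nM for 96 h) activates, and each was assayed untreated (UNT) and after tamoxifen. In Kdm2a/b-JmjC fl/fl cells tamoxifen removes the long forms of both proteins, and their short forms, which start downstream, remain. In Kdm2a/b-CXXC fl/fl cells both proteins lose the ZF-CxxC domain that contacts CpG island DNA. Kdm2b-CXXC fl/fl cells lose it from KDM2B alone, and Kdm2a-CXXC fl/fl cells from KDM2A alone. The Kdm2a/b-CXXC line was made from the Kdm2b-CXXC line by clonal editing, and the Kdm2a/b-JmjC line was derived from mice, so lines differ in more than the deleted exon, and treatment with tamoxifen and the deletion cannot be told apart within a line. Each group had 3 biological replicates, except those of Kdm2a/b-CXXC, which had 4, giving 26 ATAC libraries. Promoter accessibility does not show whether an exon was deleted, so these data hold no check of the deletion.

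PRC2 methylates lysine 27 of histone H3, a mark of repressed genes that in mESCs covers the CpG island promoters of many developmental regulators. EZH1 or EZH2 carries the catalytic activity, EED and SUZ12 are needed for it, and RBBP4 is a histone-binding subunit shared with other chromatin complexes. The accessory subunits define alternative forms, with MTF2, PHF1 or PHF19 in one and JARID2 and AEBP2 in the other. The measurements below are of the accessibility of the genes that encode these proteins, not of PRC2 itself.

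The table gave 1 interval of 400 bp per promoter, centred on a transcription start site. In all 10 intervals, 200 bases lay upstream of the start and the rest in the first exon or first intron. Ezh2 (NM_001146689, chr6:47594831-47595230, mm10, minus strand) holds 137 bases of 5′ untranslated region and 63 of intron, and the start of the divergent lncRNA gene F830010H11Rik lies 179 bp upstream. Suz12 (NM_001163018, chr11:79992906-79993305, plus strand) and Eed (NM_021876, chr7:89980777-89981176, minus strand) hold 200 bases of 5′ untranslated region each. Rbbp4 (NM_009030, chr4:129335171-129335570, minus strand) includes 16 coding bases and faces the start of Zbtb8os, 162 bp upstream on the other strand. Ezh1 is on chromosome 11, Jarid2 on 13, Aebp2 on 6, Mtf2 on 5, Phf1 on 17 and Phf19 on 2.

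Of the 10 intervals, 9 were rich in CpG, defined as 50% GC or more and a CpG ratio (observed over expected) of 0.6 or more, against 54.6% of 20630 promoters with sequence. The median GC content was 68.0% over the PRC2 gene promoters and 60.2% over all promoters, and the median CpG ratio was 0.820 against 0.672. Ezh2 held the most CpG dinucleotides of the 10, 56 in 400 bp. Aebp2 was the exception, with 7 CpG dinucleotides, 51.8% GC and a CpG ratio of 0.264. RefSeq lists another Aebp2 start 2246 bp downstream, around which a 400 bp window holds 25 CpG dinucleotides at 61.8% GC. That window was not counted in the table, so values for Aebp2 below are of its upstream, CpG-poor start only.

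Sequences of 4 promoters are shown, from 250 bases before to 50 bases after the start, as RefSeq gives them on GRCm38.p6, the same build as mm10. Suz12 and Phf19 are the most and the least accessible of the 10, Ezh2 encodes the main catalytic subunit, and Aebp2 is the CpG-poor exception. Capitals mark letters searched on both strands: TTTGGCGC and TTTCCCGC, forms of the E2F motif, CCAAT, the core that NF-Y binds, and AAGATGGC, the core of the YY1 motif.
Suz12, chr11:79992856-79993155, plus strand: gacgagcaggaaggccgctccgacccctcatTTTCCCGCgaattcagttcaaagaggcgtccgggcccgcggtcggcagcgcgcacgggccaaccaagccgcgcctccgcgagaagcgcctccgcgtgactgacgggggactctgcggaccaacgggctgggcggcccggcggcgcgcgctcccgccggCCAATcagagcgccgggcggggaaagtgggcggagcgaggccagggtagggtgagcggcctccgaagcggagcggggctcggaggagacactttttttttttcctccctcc
Ezh2, chr6:47594981-47595280, minus strand: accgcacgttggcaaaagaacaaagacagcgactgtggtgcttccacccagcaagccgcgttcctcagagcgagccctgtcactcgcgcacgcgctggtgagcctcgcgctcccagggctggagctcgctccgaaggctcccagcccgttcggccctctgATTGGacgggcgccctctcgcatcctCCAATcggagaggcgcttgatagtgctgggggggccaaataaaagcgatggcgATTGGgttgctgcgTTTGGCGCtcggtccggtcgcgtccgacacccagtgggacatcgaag
Phf19, chr2:34913927-34914226, minus strand: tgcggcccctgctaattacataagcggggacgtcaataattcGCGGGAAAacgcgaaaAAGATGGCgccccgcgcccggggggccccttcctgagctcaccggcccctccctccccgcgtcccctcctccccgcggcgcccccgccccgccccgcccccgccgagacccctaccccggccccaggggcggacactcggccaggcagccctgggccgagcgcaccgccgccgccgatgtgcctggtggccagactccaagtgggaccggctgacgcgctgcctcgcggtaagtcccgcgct
Aebp2, chr6:140622413-140622712, plus strand: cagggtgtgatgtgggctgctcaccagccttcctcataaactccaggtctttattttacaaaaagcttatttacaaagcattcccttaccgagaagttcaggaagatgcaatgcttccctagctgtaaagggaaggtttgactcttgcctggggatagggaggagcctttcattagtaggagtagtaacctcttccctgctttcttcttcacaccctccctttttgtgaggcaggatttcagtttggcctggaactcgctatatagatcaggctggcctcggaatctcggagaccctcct

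Within these 300 bases, Ezh2 held TTTGGCGC 3 bases after the start and 3 copies of CCAAT, 1 on its own strand and 2 on the other. Suz12 held TTTCCCGC 219 bases and CCAAT 61 bases before the start. Phf19 held TTTCCCGC on the other strand 208 bases before the start and AAGATGGC 192 bases before it. Over the RefSeq promoters of the 10 genes, Ezh2, Suz12 and Phf19 held an E2F form, against 1.56% of 32851 promoters of the same length, and 5 held CCAAT (Ezh2, Suz12, Eed, Jarid2 and Rbbp4), against 37.4%. The deposited 400 bp intervals reach less far upstream and further downstream. There an E2F form was found in Ezh2, Eed and Mtf2, against 2.69% of all intervals and 4.14% of CpG-rich ones. CCAAT was in the same 5 genes, against 40.0% of intervals, and AAGATGGC in Phf19, against 4.59%. CCGGAAG, the core of ETS motifs, was in 14.1% of intervals and GCGCATGC, part of the NRF1 motif, in 3.93%, and neither was in any of the 10. These letters are a description of the sequence, with no measurement of binding.

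Values are mouse reads per interval divided by the spike-in size factor of the library, called calibrated reads here. The 26 libraries held 1.49 to 3.03 M promoter reads (M, 1000000), with size factors of 0.718 to 1.41. The PRC2 gene promoters held between 28 reads (Phf19) and 588 reads (Suz12) in a library. All intervals have the same length, so levels can be set side by side within a library. Promoters of embryonic stem cell marker genes lay at a median percentile of 61.2 to 71.4 by line, those of primitive endoderm markers at 39.8 to 50.3, those of fibroblast markers at 32.3 to 36.0 and those of blood, liver, pancreas and heart markers at 10.1 to 14.3. The percentile is the rank of a promoter among all 20633 of its library, with 100 the most accessible. Single promoters of these sets overlapped. In Kdm2a/b-JmjC those of stem cell markers (9 of 10 genes found) lay between 19.5 and 94.8. Pou5f1 was at 41.7 and Nanog at 46.3 there. Promoters of primitive endoderm markers lay between 9.10 and 55.2 in that line.

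The PRC2 gene promoters were mostly among the more accessible promoters of these cells, with a wide spread among them. Suz12 was the most accessible of the 10 in 26 of 26 libraries, at percentiles of 98.0 to 99.9, and ranked between place 19 and place 416 of 20633. Rbbp4 was second in 24 of 26 libraries, at percentiles of 91.6 to 98.7. Mtf2, Jarid2, Ezh2, Ezh1, Phf1 and Eed followed, with median percentiles over the 26 libraries of 88.5, 88.1, 88.1, 84.9, 81.4 and 77.3. Phf19 was the least accessible in 26 of 26 libraries, at percentiles of 31.5 to 49.8, below the middle promoter of every library.

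**Figure D1:**
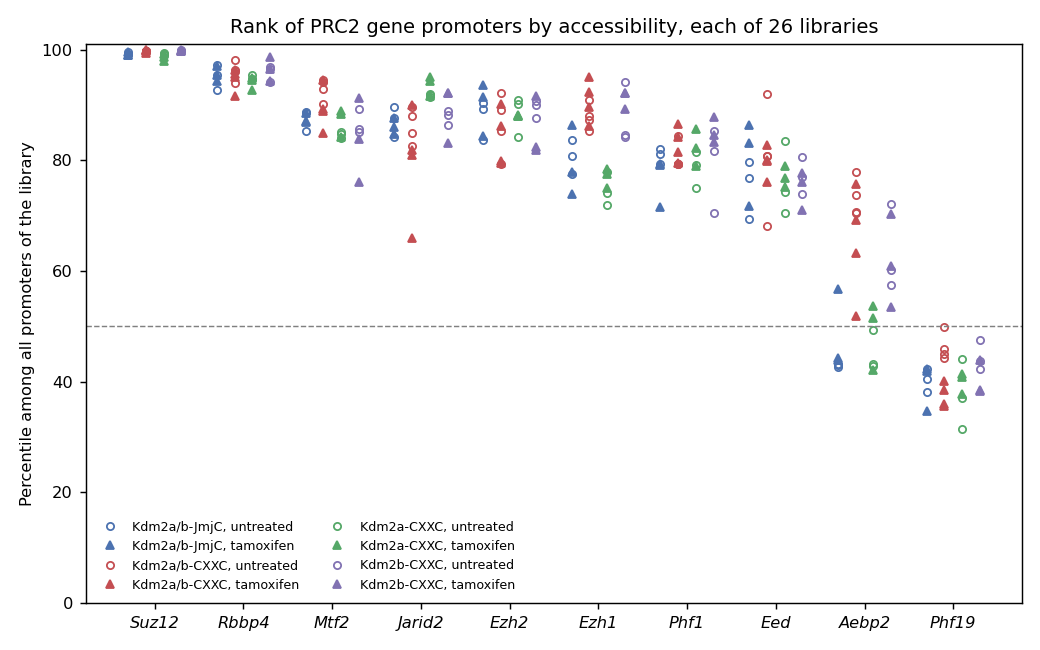
Percentile of each PRC2 gene promoter (y axis) among the 20633 promoters of the same library, for each of the 26 libraries. Open circles are untreated and filled triangles tamoxifen-treated libraries, colours mark the 4 lines and the dashed line is the middle promoter. Suz12 lies at 98.0 or above throughout, Phf19 at 49.8 or below, and Aebp2 spreads from 42.0 to 77.9.

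In untreated Kdm2a/b-JmjC cells the order was Suz12 with 340 ± 38.2 calibrated reads (SD, n = 3), Rbbp4 with 247 ± 28.0, Ezh2 with 192 ± 12.3, Mtf2 with 189 ± 14.6, Jarid2 with 188 ± 18.6, Phf1 with 160 ± 9.48, Ezh1 with 159 ± 13.3, Eed with 140 ± 13.6, Aebp2 with 53.5 ± 1.70 and Phf19 with 47.4 ± 4.97. Libraries of Ezh2, Mtf2 and Jarid2 overlapped, as did those of Phf1, Ezh1 and Eed, so the order within these sets of neighbours was not separated. Suz12 and Rbbp4 did not overlap with each other or with the next promoter. In untreated Kdm2b-CXXC cells the libraries spread so widely that every pair of neighbours overlapped, with Suz12 at 621, 351 and 415 calibrated reads and Rbbp4 at 371, 241 and 291. Suz12 still lay above Rbbp4 within each of these libraries.

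Aebp2 differed most between lines in its place. Its percentile lay between 42.7 and 43.2 in untreated Kdm2a/b-JmjC cells, between 42.9 and 49.3 in Kdm2a-CXXC, between 57.4 and 72.1 in Kdm2b-CXXC, and between 70.4 and 77.9 in Kdm2a/b-CXXC. The untreated libraries of the first 2 lines did not overlap with those of the last 2, of which Kdm2a/b-CXXC was made from Kdm2b-CXXC. Other promoters of chromosome 6, where Aebp2 lies, took 4.57% and 4.56% of promoter reads in Kdm2a/b-JmjC and Kdm2a-CXXC (median over libraries), 4.83% in Kdm2b-CXXC and 5.25% in Kdm2a/b-CXXC. The part of this share in the Aebp2 values was not tested. Ezh2, on the same chromosome, had median percentiles of 89.8, 88.1, 88.9 and 85.7 in the same order of lines. Ezh1 also lay lower in the lines Kdm2a/b-JmjC (77.4 to 83.6 untreated) and Kdm2a-CXXC (71.8 to 77.9) than in Kdm2b-CXXC (84.1 to 94.1) and Kdm2a/b-CXXC (85.2 to 91.0). Other promoters of chromosome 11, where Ezh1 lies, took 10.8% and 11.3% of promoter reads in Kdm2a/b-JmjC and Kdm2a-CXXC (median over libraries). They took 11.6% in Kdm2b-CXXC and 11.7% in Kdm2a/b-CXXC, and the part of this share in the Ezh1 values was not tested. As each line was calibrated on its own, levels were not tested between lines.

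**Figure D2:**
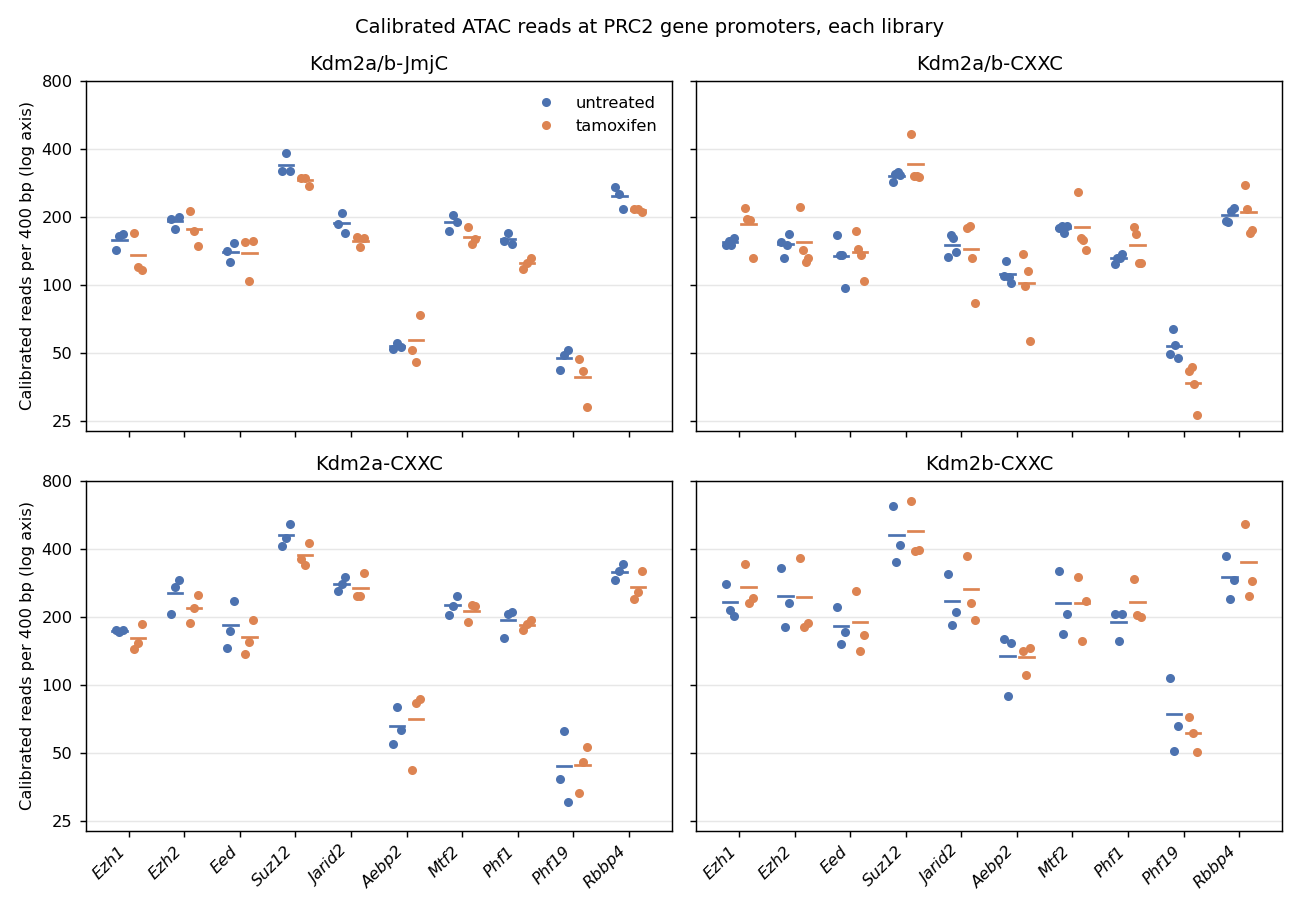
Calibrated reads per 400 bp interval (y axis, log scale) at the 10 PRC2 gene promoters in each of the 4 lines. Each point is 1 library, blue untreated and orange after tamoxifen, and bars are group means. Groups overlap at most promoters, and Phf19 in Kdm2a/b-CXXC is the one promoter of that line whose 4 treated libraries (26.5 to 43.3) all lie below the 4 untreated ones (47.4 to 63.8).

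Treated cells were compared with untreated cells within each line by limma on log2(calibrated reads + 1), with Benjamini-Hochberg adjustment over all promoters tested, and calls needed an adjusted p below 0.05 as well as a change of more than 1.4-fold. Log2 fold changes are on that scale, which slightly understates changes at promoters with few reads. All 10 PRC2 gene promoters passed the filter on low reads in every line, and 0 of 10 were called in any of the 4 lines by limma or by edgeR. DESeq2 also called 0, but in Kdm2a/b-JmjC it gave an adjusted p to Suz12 and Rbbp4 only and left the other 8 without one. In Kdm2a/b-JmjC 13 of 17174 promoters (0.0757%) were called, and in Kdm2a/b-CXXC, Kdm2b-CXXC and Kdm2a-CXXC 0 of 16413, 17930 and 17727 (0.0% in each), so 0 of 10 was no different from the background. At an unadjusted p under 0.05, limma gave 1 of the 10 in Kdm2a/b-JmjC (Phf1) against 20.6% of all promoters, 1 of 10 in Kdm2a/b-CXXC (Phf19) against 4.65%, 0 of 10 in Kdm2b-CXXC against 0.669% and 0 of 10 in Kdm2a-CXXC against 8.39%. The count in Kdm2a/b-JmjC lay between 0 (without untreated replicate 2) and 3 (without untreated replicate 3) when 1 library was left out. In pools of cells such as these, fewer cells with an open promoter and less access per cell cannot be told apart.

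The spike-in scale moved whole libraries, so each change was also computed after TMM scaling, which sets the bulk of promoters to no change. The median log2 fold change over all promoters on the spike-in scale was -0.21 for Kdm2a/b-JmjC, 0.09 for Kdm2a/b-CXXC, 0.10 for Kdm2b-CXXC and -0.18 for Kdm2a-CXXC, and between -0.0029 and 0.0012 after TMM scaling. Changes of single promoters are read below beside these medians.

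The promoters of the catalytic subunits showed no change past the test. Ezh2 held 196, 178 and 201 calibrated reads in the 3 untreated Kdm2a/b-JmjC libraries and 211, 173 and 148 after tamoxifen. In Kdm2a/b-CXXC it held 154, 132, 151 and 168 untreated and 222, 143, 126 and 132 after tamoxifen. Treated and untreated libraries overlapped in both, with the highest and the lowest library both from treated cells. The change of Ezh2 on the log2 scale was -0.12 (95% interval -0.40 to 0.16) in Kdm2a/b-JmjC cells, 0.01 (-0.35 to 0.37) in Kdm2a/b-CXXC cells, -0.05 (-0.77 to 0.67) in Kdm2b-CXXC and -0.21 (-0.56 to 0.14) in Kdm2a-CXXC. After TMM scaling it lay between -0.15 and 0.09 in the 4 lines. Ezh1, whose product is the less active alternative catalytic subunit, had 150, 156, 151 and 162 calibrated reads in untreated Kdm2a/b-CXXC cells and 220, 196, 194 and 132 after tamoxifen. Of the 4 treated libraries, 3 lay above all untreated ones and 1 below them all. Its log2 fold change was 0.23 (-0.12 to 0.59, limma adjusted p = 0.996), the highest of the 10 in that line, and 0.15 after TMM scaling.

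Among the other core subunits, Suz12 gave the narrowest intervals, as the promoter with most reads. In Kdm2a/b-JmjC it held 318, 384 and 318 calibrated reads untreated and 298, 298 and 275 after tamoxifen, so that each treated library lay below each untreated one. Its log2 fold change was -0.22 ± 0.11 (SE, limma adjusted p = 0.247), close to the median of all promoters in that line, and -0.01 after TMM scaling (95% interval -0.20 to 0.18). In Kdm2a/b-CXXC it held 286, 309, 315 and 307 untreated and 464, 302, 302 and 301 after tamoxifen. One treated library was high and the other 3 lay within the range of the untreated ones. In that line the log2 fold change was 0.14 ± 0.16 (SE, limma adjusted p = 0.996), and -0.01 without tamoxifen replicate 1. In Kdm2a-CXXC Suz12 gave the lowest value of the 10, -0.29 ± 0.16 (SE, limma adjusted p = 0.596), and -0.11 after TMM scaling. After TMM scaling all 4 intervals of Suz12 lay within a 1.4-fold change either way.

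Eed, the subunit that reads the methyl mark, held 141, 126 and 153 calibrated reads in untreated Kdm2a/b-JmjC cells and 155, 104 and 157 after tamoxifen, with a log2 fold change of -0.04 (95% interval -0.35 to 0.28). Its groups overlapped in every line, and its log2 fold change lay between -0.17 and 0.06. Rbbp4 held 271, 254 and 216 untreated and 218, 218 and 211 after tamoxifen in Kdm2a/b-JmjC. The lowest untreated library overlapped with the treated ones, and the log2 fold change was -0.19 (-0.44 to 0.06). On the spike-in scale Rbbp4 gave 0.01 in Kdm2a/b-CXXC, 0.16 in Kdm2b-CXXC and -0.23 in Kdm2a-CXXC, and -0.07, 0.06 and -0.05 after TMM scaling. Its neighbour Zbtb8os is the gene for the tRNA ligase cofactor archease. The Zbtb8os start 162 bp upstream of that of Rbbp4 lies inside the Rbbp4 interval, so reads there count for Rbbp4. The interval counted for Zbtb8os (chr4:129335826-129336225) lies 255 bp away and does not hold that start. This interval held 67.7 ± 26.9 calibrated reads (SD, n = 3) in untreated Kdm2a/b-JmjC cells, well under the 247 ± 28.0 of Rbbp4. The log2 fold change of Zbtb8os was between -0.29 and 0.19 in the 4 lines, and it was not called in any.

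Of the accessory subunits that share a Tudor domain and PHD fingers, Phf1 gave the lowest value of the 10 promoters in Kdm2a/b-JmjC and Phf19 that in Kdm2a/b-CXXC. Phf1 held 157, 170 and 152 calibrated reads in untreated Kdm2a/b-JmjC cells and 117, 125 and 131 after tamoxifen. No treated library reached an untreated one, and the log2 fold change was -0.36 ± 0.16 (SE, limma adjusted p = 0.183). After TMM scaling it was -0.15 (95% interval -0.43 to 0.14), with the nearest treated and untreated libraries at 158 and 159 scaled reads. In Kdm2a/b-JmjC, 3 of the 10 promoters (Phf1, Suz12 and Jarid2) had every treated library below every untreated one, against 23.2% of all promoters. Elsewhere Phf1 gave log2 fold changes of 0.17 in Kdm2a/b-CXXC, 0.29 in Kdm2b-CXXC and -0.05 in Kdm2a-CXXC, none of them past the test.

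Phf19 held 49.4, 63.8, 54.4 and 47.4 calibrated reads in untreated Kdm2a/b-CXXC cells and 41.7, 43.3, 36.2 and 26.5 after tamoxifen. Each of the 4 treated libraries lay below each of the 4 untreated ones, which was so at 0.597% of all promoters in that line, and Phf19 was the only one of the 10. Its log2 fold change was -0.55 ± 0.24 (SE, 95% interval -1.02 to -0.07), and it did not pass the test over all promoters (limma adjusted p = 0.996). After TMM scaling the values were 62.0, 75.1, 64.2 and 60.0 untreated and 37.9, 47.9, 44.8 and 36.9 after tamoxifen, again without overlap. The log2 fold change on that scale was -0.63 (-1.03 to -0.23, limma adjusted p = 0.189), where 17 of 16413 promoters (0.104%) were called and 9.72% had an unadjusted p under 0.05. Phf19 and Aebp2 were the 2 of 10 with an unadjusted p under 0.05 on that scale. Leaving out any 1 library kept the Phf19 value between -0.63 and -0.40 on the spike-in scale, and without untreated replicate 2 or 3 its unadjusted p no longer lay under 0.05.

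In Kdm2b-CXXC, Phf19 held 107, 51.0 and 65.8 calibrated reads untreated and 72.4, 61.1 and 50.6 after tamoxifen. The groups overlapped and the log2 fold change was -0.23 (95% interval -0.95 to 0.50), or -0.32 (-0.71 to 0.07) after TMM scaling. It was -0.30 (-0.80 to 0.21) in Kdm2a/b-JmjC cells and, for Kdm2a-CXXC, 0.05 (-0.49 to 0.58). Phf19 had the widest intervals of the 10 in every line but Kdm2b-CXXC. Its untreated libraries varied by 13.6% of their mean in Kdm2a/b-CXXC, where counting error alone gives 13.5%. They varied by 38.2% in Kdm2a-CXXC and 39.0% in Kdm2b-CXXC, where counting error gives 14.0% and 11.2%. In Kdm2b-CXXC the others of the 10 also varied, by 15.3% (Phf1) to 33.8% (Mtf2). After TMM scaling the untreated Phf19 libraries held 67.4, 54.0 and 57.7 scaled reads there, and 34.9, 52.4 and 23.5 in Kdm2a-CXXC. Mtf2, the form of this family most used in mESCs, held 179, 182, 171 and 183 calibrated reads in untreated Kdm2a/b-CXXC cells and 257, 162, 157 and 142 after tamoxifen. One treated library was above and 3 below all untreated ones, with a log2 fold change of -0.03 (-0.38 to 0.32).

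Of the other accessory pair, Jarid2, a DNA-binding JmjC protein without demethylase activity, held 186, 208 and 170 calibrated reads in untreated Kdm2a/b-JmjC cells and 162, 147 and 162 after tamoxifen. The groups did not overlap, and the log2 fold change was -0.26 ± 0.15 (SE, limma adjusted p = 0.295), or -0.05 after TMM scaling. In Kdm2a/b-CXXC it was -0.12 (95% interval -0.48 to 0.25), in Kdm2b-CXXC 0.16 (-0.57 to 0.88) and in Kdm2a-CXXC -0.07 (-0.41 to 0.28). Aebp2, a zinc finger protein, held 110, 128, 109 and 102 calibrated reads in untreated Kdm2a/b-CXXC cells and 137, 98.4, 115 and 56.2 after tamoxifen. The groups overlapped, with 1 treated library low. The log2 fold change was -0.20 (-0.59 to 0.18), and -0.29 (-0.56 to -0.01, limma adjusted p = 0.484) after TMM scaling.

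**Figure D3:**
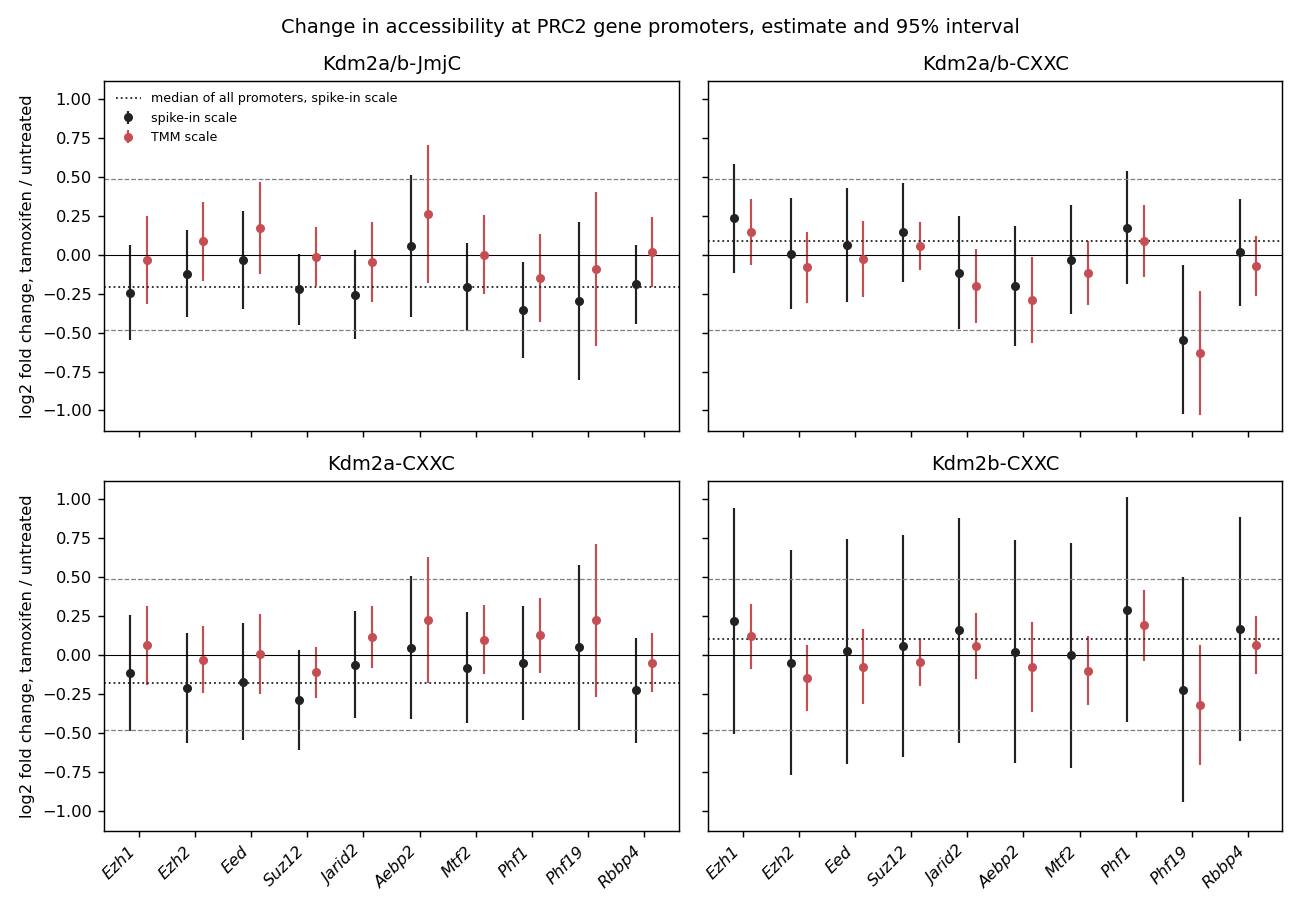
Log2 fold change of each PRC2 gene promoter, tamoxifen over untreated (y axis), in the 4 lines, with points the limma estimates and bars their 95% intervals. Black is the spike-in scale and red the TMM scale, the dotted line is the median of all promoters on the spike-in scale and dashed lines are 1.4-fold changes. Most points lie near the dotted line in black and near 0 in red, and Phf19 in Kdm2a/b-CXXC, at -0.55 and -0.63, lies lowest.

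How small a change could be shown by these fits, which did not pair libraries by replicate number, differed between lines. On the spike-in scale, the 95% interval lay within a 1.4-fold change either way for 4 of the 10 promoters for Kdm2a/b-JmjC, 6 for Kdm2a/b-CXXC, 0 in Kdm2b-CXXC and 3 in Kdm2a-CXXC. Over all promoters tested the shares were 22.8%, 29.8%, 0% and 15.1% in the same order of lines. After TMM scaling the numbers were 8, 8, 9 and 8 of the 10, beside 44.5%, 58.1%, 56.4% and 52.1% of all promoters. The median standard error over the 10 in Kdm2b-CXXC was 0.37 on the spike-in scale and 0.11 after TMM scaling. For the other promoters the interval reached beyond 1.4-fold on at least one side.

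Over the 10 promoters, the median log2 fold change had the same sign as that of all promoters in each line. It was -0.22 for Kdm2a/b-JmjC, 0.01 for Kdm2a/b-CXXC, 0.04 in Kdm2b-CXXC and -0.10 in Kdm2a-CXXC, beside -0.21, 0.09, 0.10 and -0.18 over all promoters tested. In Kdm2a/b-JmjC 9 of 10 values were below 0, and after TMM scaling 5 were below and 5 above. On the TMM scale 7 of 10 were below 0 in Kdm2a/b-CXXC, 6 in Kdm2b-CXXC and 3 in Kdm2a-CXXC. After TMM scaling the medians were -0.01, -0.08, -0.06 and 0.08. In single libraries, the median over the 10 lay 0.45 above the untreated mean in tamoxifen replicate 1 of Kdm2a/b-CXXC, and 0.43 over all promoters. In Kdm2b-CXXC replicate 1 it lay 0.38 above in untreated and 0.56 above in treated cells, and 0.41 and 0.53 over all promoters.

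**Figure D4:**
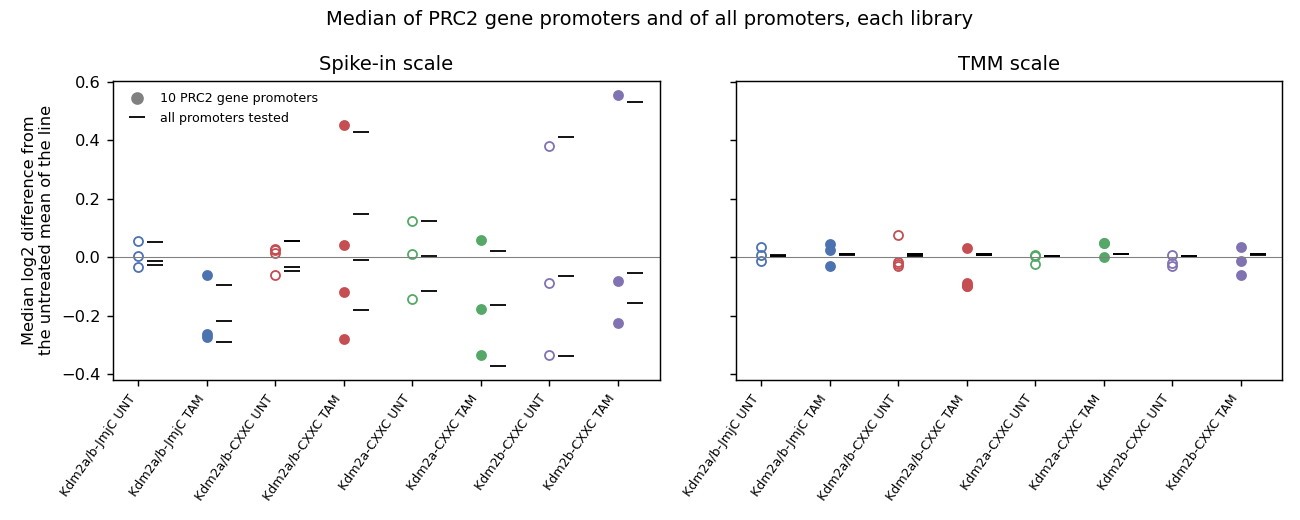
Median log2 difference of each library from the untreated mean of its line (y axis), on the spike-in scale (left) and after TMM scaling (right). Circles are the median over the 10 PRC2 gene promoters, open for untreated (UNT) and filled for tamoxifen-treated (TAM) libraries, and dashes the median over all promoters tested. On the left circles follow the dashes from -0.34 to 0.56, and on the right they lie between -0.10 and 0.08.

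The change after tamoxifen was then compared between lines by limma interaction contrasts over all 26 libraries and the 16030 promoters that passed the filter in every line. The contrasts share libraries. On the spike-in scale no PRC2 gene promoter had an unadjusted p under 0.05 in any of the 3 contrasts. The background at that level was 8.01% for Kdm2a/b-CXXC minus Kdm2a/b-JmjC, 0.736% for Kdm2a/b-CXXC minus Kdm2b-CXXC and 3.61% for Kdm2b-CXXC minus Kdm2a-CXXC. The largest difference on this scale was that of Phf1 between Kdm2a/b-CXXC and Kdm2a/b-JmjC, 0.53 ± 0.30 on the log2 scale (SE, 95% interval -0.07 to 1.13, limma adjusted p = 0.617), beside a median of 0.30 over all promoters. After TMM scaling the Phf1 value was 0.23, and the largest in that contrast was that of Aebp2, -0.56 (-1.04 to -0.07, limma adjusted p = 0.522). Aebp2 was then the 1 promoter of the 10 with an unadjusted p under 0.05, against 8.4% of all promoters. For Phf19 the difference between Kdm2a/b-CXXC and Kdm2a/b-JmjC was -0.25 (-1.02 to 0.52), or -0.55 (-1.16 to 0.07) after TMM scaling, and between Kdm2a/b-CXXC and Kdm2b-CXXC -0.32 (-1.09 to 0.45). These contrasts did not separate the Phf19 values. Kdm2a/b-CXXC and Kdm2a-CXXC, where Phf19 gave -0.63 and 0.22 after TMM scaling, were not contrasted, so that difference was not tested.

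Other polycomb genes were read in the same fits, from lists of further PRC2-associated genes, the H3K27 demethylases Kdm6a and Kdm6b, and PRC1 genes, with 38 promoters in all. Of those tested, 0 of 36 were called in Kdm2b-CXXC and 0 of 35 in each other line. In Kdm2a/b-JmjC 13 of 35 had an unadjusted p under 0.05, all of them lower after tamoxifen, against 20.6% of all promoters, and the median log2 fold change was -0.25 over the list and -0.21 over all promoters. The lowest p there was that of Scml2, a PRC1 gene, with 70.6 ± 24.1 calibrated reads untreated and 40.8 ± 11.6 after tamoxifen (SD, n = 3). Its log2 fold change was -0.77 ± 0.24 (SE, limma adjusted p = 0.0821), and -0.56 after TMM scaling. Bcor, of the PRC1 form that also holds KDM2B, followed with -0.67 (limma adjusted p = 0.148), and -0.47 after TMM scaling. Another promoter of Bcor gave -0.48 in that line (limma adjusted p = 0.332). In Kdm2a-CXXC 2 of 35 had an unadjusted p under 0.05, against 8.39% of all promoters. These were Phc1 and Ring1, both PRC1 genes, at -0.46 and -0.48, each with a limma adjusted p of 0.581, and at -0.28 and -0.30 after TMM scaling. In Kdm2a/b-CXXC Epop, a PRC2-associated gene, gave 0.33. For Kdm2b-CXXC the smallest p belonged to Kdm6b at 0.54 and Bcor at 0.45, with 0.17 at the other Bcor promoter. Each of these had a limma adjusted p of 0.996 or above.

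Promoters whose values ran most alike were sought over the 26 libraries, as Pearson's r of TMM-scaled log2 values centred within each line, among 16029 other promoters. For Ezh2 these were Paxip1 (r = 0.712) and Slc44a1 (0.698), for Eed Flvcr2 (0.660) and Lpar1 (0.656), for Suz12 Ndufv3 (0.741) and Tmem216 (0.736), and for Jarid2 Cebpzos (0.738) and Cdc6 (0.705). These are the highest of many values and a description only, since libraries share their line, treatment and depth. Among the 45 pairs of PRC2 gene promoters r lay between -0.55 and 0.45, with a median of -0.03, so that pairs varied in either direction.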

How the data were processed

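Accessibility was measured in 26 ATAC libraries. The remaining 26 of the 52 samples are input genomic DNA, with which the authors adjusted the ratio of spike-in to mouse cells, and are not analysed here. The authors aligned paired-end reads to mm10 and dm6 with Bowtie2, discarded reads mapped more than once, PCR duplicates (SAMtools) and blacklisted regions, and counted mouse reads per promoter. The deposited library columns are a signal, the reads divided by a spike-in size factor that the authors took from DESeq2. Columns with the authors' own fold changes, errors and p-values were not used.

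Reads were recovered from the steps between values (100% whole within 0.01), giving 1.49 to 3.03 M reads per library and counting error as stated. RefSeq identifiers matched symbols for 99.1% of promoters. The values being normalized, the main test was limma 3.58.1 with a mean-variance trend on log2(value + 1), two-sided, within each line, after the filterByExpr filter of edgeR 4.0.16 on recovered reads, with Benjamini-Hochberg adjustment, and calls at adjusted p below 0.05 with a change above 1.4-fold. Lines were compared by interaction contrasts. Alternatives were other scalings, pseudocounts of 0.5 and 5, no filter, DESeq2 1.42.0, edgeR, a replicate block and leaving out each library. Samples were grouped by their labels. Libraries of a group differed by more than sampling noise (chi-square per degree of freedom of 1.90 or more). The scripts were tested on simulated data. The members, gene lists and searched letters were chosen with earlier results of these data known. Named were all members, any promoter within 1000 bp, the 2 other polycomb promoters with the smallest p in each line (1 of these is not reported here), and the 2 promoters most like Ezh2, Eed, Suz12 and Jarid2.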

Additional observations from a re-analysis of the deposited data

Results flagged for a closer look

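One of 20 groups of 4 libraries examined held a library far from the others, which chance gives in about 1 in 20 groups, and the 20 groups are of the same 8 libraries. Suz12 in tamoxifen-treated Kdm2a/b-CXXC cells held 464 calibrated reads in replicate 1, and 301 to 302 in the other 3, so that the gap took up 0.992 of the range. After TMM scaling the same 4 libraries held 422, 334, 374 and 420 scaled reads. In that library all promoters tested lay 0.43 above the untreated mean (median, log2). In the 3 contrasts between lines that were run, no difference passed the test at any of the 10 promoters.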

How the results depend on the processing

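None of the 10 promoters was called within a line under any setting, though DESeq2 gave 8 of them no adjusted p in Kdm2a/b-JmjC, and none in the contrasts between lines, which were run on the spike-in scale, with TMM scaling, with a pseudocount of 0.5 and with the replicate block. Of 660 values of single promoters under other settings, 551 kept their direction and 109 changed sign, with none called. Each of the 3 scalings, which move all promoters of a library together, changed 15 signs, and leaving out 1 library 44. By TMM, median of ratios or total promoter reads, in Kdm2a/b-JmjC Ezh2 became 0.087, 0.089 and 0.091, Eed 0.17 to 0.18, Mtf2 0.00065, 0.0027 and 0.0050, and Rbbp4 0.019, 0.021 and 0.023. In Kdm2a/b-CXXC Ezh2 became -0.079 to -0.086, Eed -0.026, -0.025 and -0.032, and Rbbp4 -0.072, -0.071 and -0.078. In Kdm2a-CXXC Ezh1 became 0.061, 0.063 and 0.068, Eed 0.0070, 0.0088 and 0.014, Jarid2 0.11 to 0.12, Mtf2 0.10 and Phf1 0.13. In Kdm2b-CXXC Eed became -0.076, -0.078 and -0.073, Suz12 -0.045, -0.046 and -0.041, and Aebp2 -0.078, -0.080 and -0.075. On recovered reads, Mtf2 was 0.00041 in Kdm2a/b-CXXC with DESeq2, Phf19 -0.016 and -0.029 in Kdm2a-CXXC with DESeq2 and edgeR, and Aebp2 -0.011 and -0.012 in Kdm2b-CXXC. The median over the 10 became -0.0062, -0.0041 and -0.0018 in Kdm2a/b-JmjC and 0.079, 0.081 and 0.086 in Kdm2a-CXXC under the 3 scalings.

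Over promoters, deviations of same-numbered libraries correlated by at most 0.073, a measure blind to shifts of whole libraries. On the spike-in scale, Kdm2a/b-JmjC gave 0.043, 0.059 and 0.073, and -0.058 to 0.0020 between libraries of different number. Kdm2b-CXXC gave -0.0090, 0.0062 and 0.0051, and -0.014 to 0.0099 between libraries of different number. For replicates 1 to 3 of Kdm2b-CXXC, all promoters lay at medians of 0.41, -0.34 and -0.06 untreated. After tamoxifen these were 0.53, -0.16 and -0.05, in the same order. In Kdm2a/b-JmjC they were -0.01, 0.05 and -0.03, then -0.10, -0.29 and -0.22, in another order. Whether replicate numbers pair the libraries was not tested. In Kdm2a/b-CXXC minus Kdm2a/b-JmjC the block put Ezh1, Suz12 and Phf1 at an unadjusted p under 0.05, with limma adjusted p values of 0.156 or more. Of all 16030 promoters, 3419 were at that level in this contrast with the block, and 72 had an adjusted p under 0.05. The replicate block gave 62 calls over all promoters in Kdm2a/b-JmjC, 188 in Kdm2a-CXXC and 5 in Kdm2b-CXXC. With TMM scaling the block gave the TMM values above, and 23 calls in Kdm2a/b-CXXC, 0 in Kdm2a/b-JmjC and 1 in Kdm2b-CXXC. Calls over all promoters in Kdm2a/b-JmjC were 0 under each other scaling and with no filter, 71 with a pseudocount of 5 and 114 with edgeR. The 3 scalings gave 17, 17 and 18 calls in Kdm2a/b-CXXC cells and 1 each in Kdm2b-CXXC cells.

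Leaving out 1 library gave 0 to 622 calls for Kdm2a/b-JmjC (622 without tamoxifen replicate 1, 36 without untreated replicate 3, 0 without untreated replicate 1 or 2 and 3 without tamoxifen replicate 3), 0 to 8 for Kdm2a/b-CXXC (above 0 without tamoxifen replicate 1 or 4) and 0 to 50 for Kdm2a-CXXC (50 without tamoxifen replicate 3). In Kdm2a/b-JmjC it moved Eed between -0.14 and 0.16 and Aebp2 between -0.14 and 0.20. In Kdm2a/b-CXXC it moved Ezh2 between -0.18 and 0.094, Eed between -0.085 and 0.19, Suz12 between -0.011 and 0.20, Jarid2 between -0.25 and 0.12, Aebp2 between -0.37 and 0.057, Mtf2 between -0.22 and 0.067 and Rbbp4 between -0.13 and 0.10. In Kdm2a-CXXC it moved Eed between -0.33 and 0.019, Aebp2 between -0.13 and 0.38, Phf1 between -0.18 and 0.016 and Phf19 between -0.18 and 0.33. In Kdm2b-CXXC it moved Ezh2 between -0.38 and 0.18, Eed between -0.23 and 0.21, Suz12 between -0.19 and 0.29, Jarid2 between -0.11 and 0.37, Aebp2 between -0.25 and 0.17, Mtf2 between -0.22 and 0.25, Phf19 between -0.46 and 0.067 and Rbbp4 between -0.15 and 0.37. The cause of these shifts was not tested.

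Among promoters that pass the filter, the median percentile of the 10 was 79.7, 80.8, 79.7 and 85.0 for Kdm2a/b-JmjC, the double CXXC line, Kdm2a-CXXC and Kdm2b-CXXC. In the unpaired fits on the spike-in scale, the median standard error over the 10 was highest in Kdm2b-CXXC, at 0.37. It was 0.11 there after TMM scaling.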
